A study of Caenorhabditis elegans with 9 samples.

Results

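Prefoldin is a cytosolic chaperone complex, and its subunits are encoded in Caenorhabditis elegans by the genes pfd-1 to pfd-6. The 6 genes were taken by symbol from a deposited table of 20389 genes, and all 6 were found and had an FPKM (a read count scaled by transcript length and library size) above the minimum of 1 in all 3 genotypes. They were described by their level in larvae that differ in hsf-1, which encodes the main heat shock transcription factor.

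Whole L2 larvae of 3 genotypes were sequenced, with 3 libraries each and 500 pooled larvae per library, collected 30 h after an egg lay of 2 h at a stated 20 °C, with no heat shock named. The control was the wild-type strain N2. The mutant larvae were homozygous for hsf-1(ok600), a deletion allele. They were GFP-negative offspring of the balanced strain OG576, whose balancer hT2, a rearrangement of chromosomes I and III, carries bli-4(e937), let-?(q782) and the marker qIs48, with GFP under the myo-2, pes-10 and ges-1 promoters. The third genotype, strain AM1061, was homozygous for the same deletion and carried the transgene rmSi1[hsf-1::gfp]. It is called the transgenic line here, and the labels do not name the promoter of its transgene.

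Prefoldin is a hexamer shaped like a jellyfish, whose coiled-coil arms hold newly made, still unfolded actin and tubulin chains and pass them to the CCT chaperonin, the ring-shaped machine that folds them. The complex has alpha-type subunits, named PFDN3 and PFDN5 in mammals, and beta-type subunits, PFDN1, PFDN2, PFDN4 and PFDN6. The worm genes carry the same numbers. In worms, pfd-6 has been placed downstream of HSF-1 in the control of lifespan.

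For each gene the authors gave 1 FPKM per genotype, with its 3 libraries combined, so neither values per library nor their spread can be shown, and the sequencing depth is unknown. The range in brackets after a level is the deposited interval, of unstated confidence level. The targeted gene hsf-1 had levels of 25.3 FPKM (7.62 to 43.1), 21.4 (6.52 to 36.4) and 69.3 (29.4 to 109) in wild type, mutant and transgenic line. A gene-wide level is no check of a deletion, and transgene RNA counts as hsf-1. All 12 markers of larval muscle, intestine, epidermis, neurons and germ line were detected, at 5.36 to 843, 5.33 to 758 and 8.95 to 800.5 FPKM in wild type, mutant and transgenic line. Of these markers snb-1, a synaptic gene of neurons, rose in the mutant, from 303 to 624 FPKM, with a q of 0.00249 by the authors' deposited table, and was at 421 in the transgenic line. The intestinal marker ges-1 was at 5.36, 5.33 and 19.4 FPKM in wild type, mutant and transgenic line. The part of tissue make-up in the prefoldin values was not tested. The 6 adult yolk protein genes were between 0 and 1.74 FPKM throughout. The oocyte gene oma-1 was at 11.3, 2.72 and 1.54 FPKM in wild type, mutant and transgenic line, with a q of 0.0552 by the authors' deposited table. The oocyte genes rme-2 and oma-2 and the sperm genes msp-3, msp-10 and msp-31 were between 0 and 3.51 FPKM.

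The genes lie on 4 chromosomes, given here on the build ce10. Of the alpha type, pfd-3 (T06G6.9) lies at chromosome I, 12728162 to 12729861, and pfd-5 (R151.9) at chromosome III, 7198090 to 7198824. The beta-type gene pfd-2 (H20J04.5) lies at chromosome II, 4326723 to 4328291, pfd-4 (B0035.4) at chromosome IV, 11315183 to 11315855, and pfd-6 (F21C3.5) at chromosome I, 7282958 to 7283816. The locus listed for pfd-1 (C08F8.1), chromosome IV, 11146085 to 11154314, is shared by 4 genes. hsf-1 itself is on chromosome I.

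All are short genes. In the Ensembl annotation of WBcel235 the longest transcript of each spans 464 bases in pfd-1, 548 in pfd-4, 565 in pfd-2, 569 in pfd-6, 591 in pfd-5 and 898 in pfd-3, in 2 to 4 exons. Several have close neighbours on the same strand. The exosome subunit gene exos-9 begins 77 bases downstream of pfd-5, and rde-2, a gene of RNA interference, begins 39 bases downstream of pfd-6. These 2 neighbours were far less abundant: exos-9 was at 16.6, 14.8 and 26.2 FPKM in wild type, mutant and transgenic line, and rde-2 at 4.67, 2.67 and 4.65. B0035.22 lies 24 bases upstream of pfd-4 on the same strand, and T06G6.15 overlaps pfd-3. No level is given here for either.

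Among the subunits, pfd-1 had the widest interval relative to its level in every genotype. The part of its shared locus in this width was not tested. Within its locus F01G4.6, on the opposite strand, was at 2405 FPKM (1449 to 3357) in wild type, 23.9-fold the level of pfd-1, and C08F8.2 begins 66 bases downstream of pfd-1 on the same strand. The interval of pfd-1 began at 0 in every genotype. Its width to either side, averaged over both sides, was 124% of the value in wild type. By this measure the other subunits had 58.1% to 76.7%, and 1490 genes in the same range of levels a median of 63.0%.

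**Figure D1:**
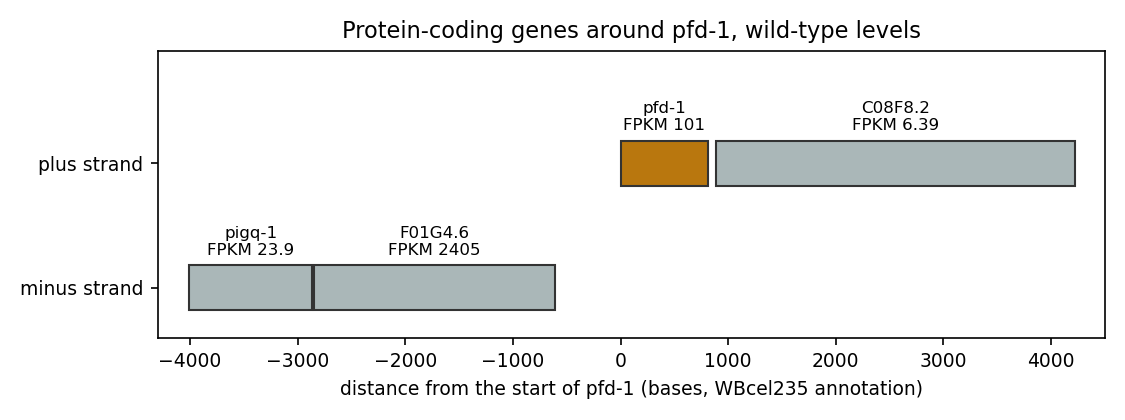
Protein-coding genes that share the listed locus of pfd-1, drawn by strand against the distance in bases from the start of pfd-1 (WBcel235 annotation), with the wild-type FPKM above each. The neighbour F01G4.6, at 2405 FPKM, lies on the other strand from pfd-1, at 101 FPKM.

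In wild-type larvae the prefoldin genes were well expressed. The most abundant were pfd-6 at 189.7 FPKM (64.8 to 310.4) and the alpha-type genes pfd-3 at 188 (76.0 to 294) and pfd-5 at 163 (52.9 to 273). The other beta-type genes followed, pfd-1 at 101 (0 to 249.7), pfd-4 at 93.0 (21.6 to 164) and pfd-2 at 59.0 (14.8 to 102). Each lay above at least 88.6% of all listed genes. The highest was 3.21-fold the lowest, and in none (0) of the 15 pairs of subunits were the intervals separate, so neighbours in this order do not differ beyond their intervals.

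The order of the values differed between genotypes. In the mutant it ran pfd-3, pfd-1, pfd-5, pfd-6, pfd-4, pfd-2, and again no pair (0 of 15) was separate. In the transgenic line it ran pfd-5, pfd-3, pfd-4, pfd-1, pfd-6, pfd-2. There the highest was 6.59-fold the lowest, and 1 of 15 pairs was separate, pfd-5 with a lower bound of 131 above pfd-2 with an upper bound of 100.03.

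**Figure D2:**
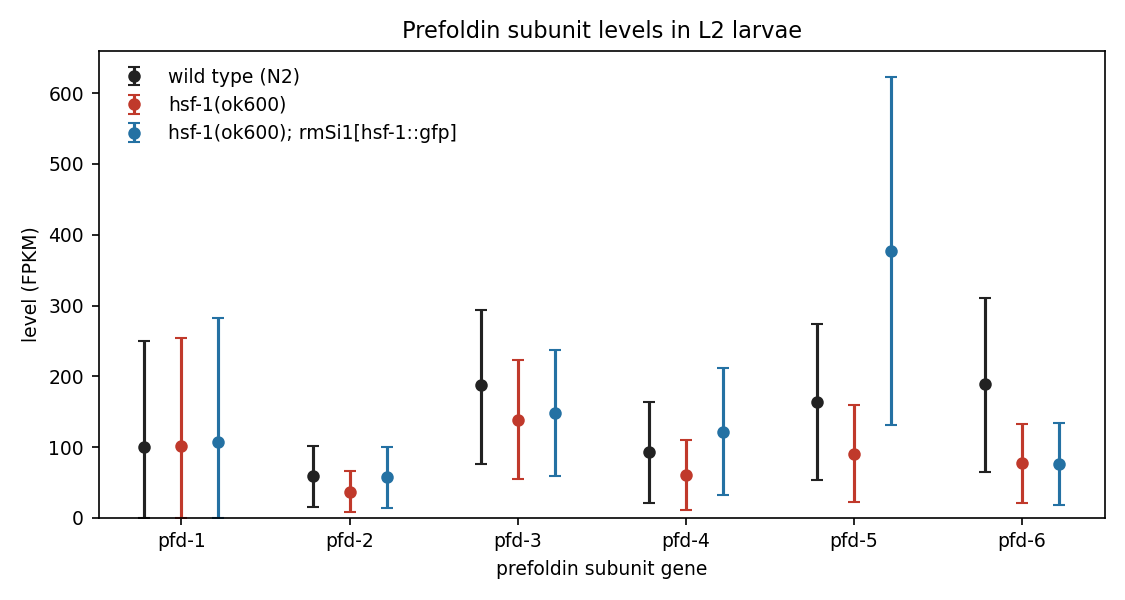
Level of each prefoldin subunit gene in FPKM (vertical axis, linear) in the 3 genotypes, with points for the authors' values over 3 libraries and bars for the deposited intervals, of unstated confidence level. The mutant point is below the wild-type point for every gene except pfd-1, pfd-5 is highest in the transgenic line at 377 FPKM, and pfd-6 is near 77 FPKM in both hsf-1(ok600) groups.

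The mutant was set against wild type to ask how the subunit RNAs differ when hsf-1 carries the deletion. One subunit gene, pfd-6, fell 2.45-fold, from 189.7 FPKM (64.8 to 310.4) to 77.5 (21.5 to 132.6), with a q of 0.0156 by the authors' deposited table. The alpha-type gene pfd-5, at 163 FPKM in N2 and 90.4 (21.7 to 159) in hsf-1(ok600) larvae, a ratio of 0.554, did not pass (p of 0.02 and q of 0.156, authors' deposited table). In whole larvae, fewer cells with a given RNA and less of that RNA per cell cannot be told apart.

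The remaining 4 genes did not pass either. The level of pfd-3 went from 188 to 139 FPKM (54.7 to 223), a ratio of 0.740, that of pfd-4 from 93.0 to 60.6 (11.4 to 109.8), a ratio of 0.651, and that of pfd-2 from 59.0 to 37.0 (8.04 to 65.8), a ratio of 0.626. Their q-values in the authors' deposited table were 0.426, 0.422 and 0.447. Mutant pfd-1, at 102 FPKM (0 to 254), was next to its wild-type level of 101, with a q of 0.996 in that table. The intervals of the mutant overlapped those of wild type in each of these genes.

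By count, 1 of the 6 genes passed and was lower in the mutant, 0 were higher, and 5 did not pass. Over all 12615 genes tested in the authors' deposited table, 2.9% passed and were lower, 2.93% passed and were higher, and 5.83% passed in either direction. On the log2 scale of FPKM with a pseudocount of 1, 5 of the 6 genes were below wild type. The differences ran from −1.28 in pfd-6 to 0.01 in pfd-1, with a median of −0.64. All 13182 genes with an FPKM of at least 1 had a median of 0.15, with 42.3% of them below wild type. The 7872 genes that reached 5 FPKM in all 3 genotypes had a median of 0.04. The difference of pfd-6 was as low or lower in 5.83% of all tested genes, and that of pfd-5 in 12.3%.

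The call for pfd-6 does not show in the intervals. Its wild-type and mutant intervals overlapped between 64.8 and 132.6 FPKM, and the difference of −112 FPKM was smaller than the combined reach of both intervals, 135 FPKM (the root of their summed squared widths to either side). Intervals were separate between mutant and wild type for 0 of the 6 genes, beside 0.888% of all genes with an FPKM of at least 1. For the genes that did not pass, the differences with their combined reach were −72.7 ± 129.9 FPKM for pfd-5, −48.7 ± 138 for pfd-3 and −32.4 ± 86.6 for pfd-4. They were −22.0 ± 52.2 for pfd-2 and 0.914 ± 178 for pfd-1. The intervals of pfd-1 begin at 0, so its combined reach may be understated.

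The transgenic line asks how the same RNAs stand when an hsf-1::gfp transgene is present in animals homozygous for the deletion. No test of this line was used here, and the 2 comparisons below share its values. The subunit genes ranged from 0.403-fold to 2.31-fold wild type. The alpha-type gene pfd-5 was at 377 FPKM (131 to 623), 4.17-fold the mutant and 2.31-fold wild type. Its interval overlapped that of the mutant between 131 and 159 FPKM, while the difference from the mutant, 286 FPKM, was larger than the combined reach of 255. From wild type it differed by 214 FPKM, within the combined reach of 269.6.

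The level of pfd-6 in the transgenic line was 76.5 FPKM (18.6 to 134), 0.987-fold the mutant and 0.403-fold wild type. Its value was thus close to the mutant one, with a difference of −1.004 FPKM and a combined reach of 80.1, and its interval overlapped that of wild type. The other alpha-type gene, pfd-3, was at 148 FPKM (58.7 to 237), 1.07-fold the mutant and 0.789-fold wild type. The beta-type genes pfd-4, at 122 (31.9 to 212), and pfd-2, at 57.2 (13.5 to 100.03), were 2.01-fold and 1.55-fold the mutant, and 1.31-fold and 0.969-fold wild type. The level of pfd-1 was 108 FPKM (0 to 282).

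Intervals of the transgenic line were separate from those of the mutant for 0 of the 6 genes, beside 1.37% of all genes with an FPKM of at least 1, and from those of wild type for 0 of the 6, beside 0.685%. With the combined reach as the measure, 1 of the 6 genes, pfd-5, differed between transgenic line and mutant, beside 5% of all genes, and 0 between transgenic line and wild type, beside 3.05%. Between mutant and wild type that measure held for 0 of the 6, beside 4.65%. The median log2 difference over the 6 genes was 0.35 from the mutant and 0.02 from wild type, where all genes had medians of −0.19 and 0.00. The 7872 genes that reached 5 FPKM in all 3 genotypes had medians of −0.03 and 0.02. Without pfd-1 the medians over the members were 0.62 and −0.05. Centring each genotype on its median also turned the second median of the members, to −0.02, so it has no stable sign.

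Of the 5 subunit genes with lower values in the mutant, pfd-6 and pfd-3 had the transgenic value nearest to the mutant one by ratio. Both lie on chromosome I with hsf-1 itself, one of the chromosomes that the balancer hT2 rearranges. Outside those 5 genes, pfd-1 on chromosome IV was as near, at 1.06-fold the mutant. The mutant larvae were GFP-negative, and the GFP marker is carried by the balancer. Over the 2044 genes of chromosome I with an FPKM of at least 1, the median log2 difference of the transgenic line from wild type was 0.02, beside 0.00 over the 10519 genes elsewhere. From the mutant it was −0.13 over 2102 genes of chromosome I and −0.20 over 10969 genes elsewhere. The genes elsewhere include those of chromosome III. The gene pfd-5, whose transgenic value was farthest from the mutant one, lies on chromosome III, the other chromosome in that rearrangement. The part of chromosome position in these values was not tested.

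**Figure D3:**
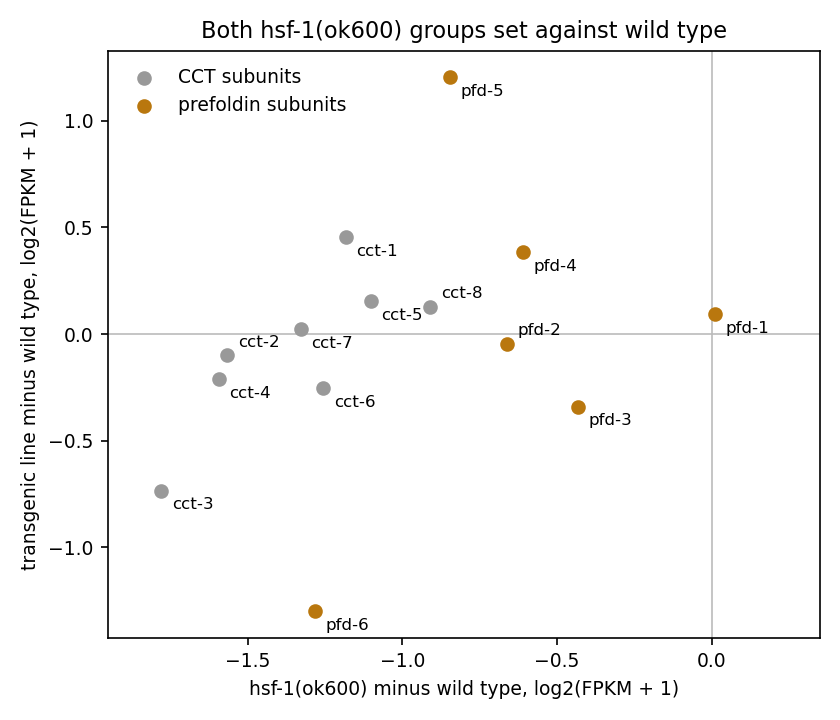
Difference from wild type in log2(FPKM + 1) for the mutant (horizontal axis) and the transgenic line (vertical axis), with 1 point per prefoldin or CCT subunit gene; both axes share the wild-type values. pfd-5 is at the top at 1.20 on the vertical axis, pfd-6 at the bottom at −1.30, and the CCT genes lie between −0.73 and 0.45.

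Summed over the subunits, prefoldin RNA amounted to 793, 506 and 888 FPKM in wild type, mutant and transgenic line. The mutant sum was 63.8% of that of wild type, and the transgenic sum 112%. The share of pfd-6 was 23.9%, 15.3% and 8.62% in the same order, while that of pfd-5 was 20.6%, 17.9% and 42.5%. The share of pfd-2 stayed between 6.44% and 7.44%. That of pfd-1 was 12.7%, 20.1% and 12.1%, and without pfd-1 the sums were 692, 404 and 780 FPKM. No interval can be given for a sum or a share, since the deposited bounds are per gene.

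The CCT chaperonin, which receives the chains prefoldin holds, is made of the products of cct-1 to cct-8. Of these 8 genes, 7 passed and were lower in the mutant and 0 were higher in the authors' deposited table. Over all tested genes those shares were 2.9% and 2.93%. The falls of the 7 genes ran from 2.15-fold in cct-5 to 3.51-fold in cct-3. The exception was cct-8, at 64.1 and 33.7 FPKM (q of 0.062). Their median log2 difference was −1.29, beside −0.64 for prefoldin, and 1 of the 6 prefoldin differences, that of pfd-6, lay inside the CCT range of −1.78 to −0.91. In the transgenic line all 8 CCT genes were above the mutant value, by 1.00 to 1.64 on the log2 scale, where prefoldin genes ran from −0.02 in pfd-6 to 2.05 in pfd-5. Of all genes with an FPKM of at least 1, 59.5% were below the mutant value. Summed CCT RNA was at 1771, 710.3 and 1784 FPKM in wild type, mutant and transgenic line. In that order the ratio of the prefoldin sum to the CCT sum was 0.448, 0.712 and 0.498. Without pfd-1 it was 0.391, 0.569 and 0.437. Whether the sets differ was not tested.

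Tubulins and actins are the main substrates of this folding path, and no gene of either list passed as lower. Of 14 tested alpha- and beta-tubulin genes on a list of 15, 3 rose in the mutant and 0 fell in the authors' deposited table. Of all tested genes, 2.93% passed as higher and 2.9% as lower. The alpha-tubulin gene tba-1 rose from 476 FPKM (265 to 686) to 799 (459 to 1139.7), with a q of 0.0116. The beta-tubulin gene ben-1, known as the target of benzimidazole drugs, rose from 14.6 (3.34 to 25.8) to 42.2 (15.9 to 68.5), with a q of 0.0249. The third, the beta-tubulin gene tbb-6, had levels of 0.708 (0 to 2.07), 124 (59.1 to 189.5) and 2.14 (0 to 4.22) in wild type, mutant and transgenic line, with a q of 0.00893 for the first comparison. Its intervals separated the mutant from both other groups, and its locus is shared by 2 genes. The abundant tbb-2, at 1354 FPKM in wild type and 1862 in the mutant, and the gamma-tubulin gene tbg-1, at 12.7 and 12.9, did not pass.

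None of the 5 actin genes passed (0 in the authors' deposited Cuffdiff test, and 1 at an unadjusted p under 0.05). Over all tested genes 5.83% passed in either direction. The most abundant actin genes were act-4, at 3201 and 4717 FPKM (q of 0.097), and act-5, an intestinal actin, at 1127 and 904. Tubulin and actin genes have near-identical copies, so reads may be split between them and single values are uncertain.

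Genes for other steps around prefoldin were mostly not called. Of 7 genes for tubulin folding cofactors and their partners, the authors' deposited table had 1 that rose and 0 that fell. Among all tested genes the shares were 2.93% and 2.9%. The riser was tbca-1, whose product in other species takes beta-tubulin on after CCT, from 8.05 FPKM (0.200 to 15.8) to 63.7 (15.2 to 112), with a q of 0.0403 and a transgenic value of 19.0. The prefoldin-like gene uri-1 was at 21.0, 20.2 and 19.4 FPKM in wild type, mutant and transgenic line. The ATPase genes ruvb-1 and ruvb-2, whose products work with URI-type prefoldins in mammals, went from 61.4 to 49.0 and from 48.4 to 23.4 between wild type and mutant, with q-values of 0.58 and 0.27. The gene txdc-9, for a phosducin-like partner of CCT in mammals, was at 20.9, 18.1 and 52.2. These last 4 genes did not pass (0 in the authors' deposited Cuffdiff test, and 0 at an unadjusted p under 0.05).

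**Figure D4:**
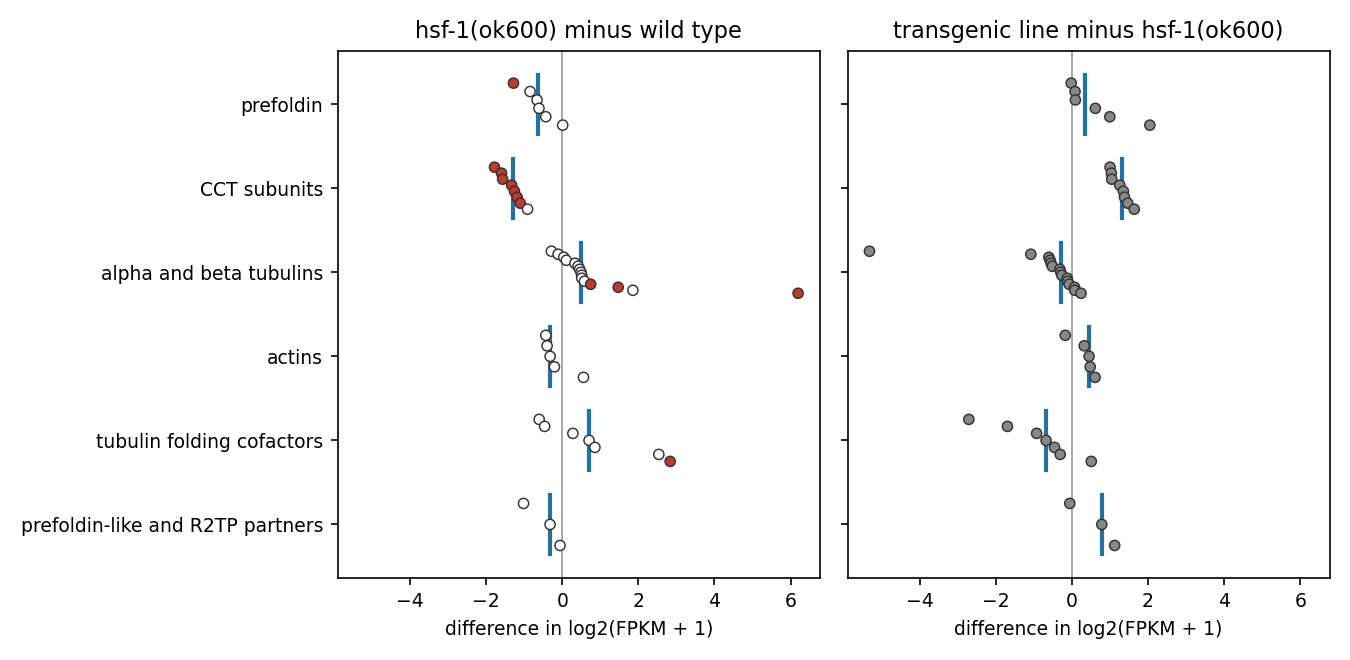
Difference in log2(FPKM + 1) of each gene, by list, for the mutant minus wild type (left) and the transgenic line minus the mutant (right); blue bars are list medians, red points passed at a q of at most 0.05 in the authors' deposited table, and the grey points on the right were not tested. The prefoldin median is −0.64 on the left and 0.35 on the right, the CCT median −1.29 and 1.30, and tbb-6 lies far out on both sides.

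The genes with the pattern most like the median of the 6 subunits, over the 3 genotypes, were sought among 7866 genes that reached 5 FPKM in all 3 genotypes, by the Euclidean distance of centred log2 values. They were vwa-8, C53A5.13, the lysyl-tRNA synthetase gene kars-1, the methionine synthase gene metr-1 and ZK809.8, at distances of 0.0838 to 0.0872. Among the subunits themselves, pfd-2 was closest to that median at 0.104, with 33 other genes closer, and pfd-5 farthest at 1.13, with 6563 other genes closer. Such a distance rests on 3 values per gene, 1 for each genotype.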

How the data were processed

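Total RNA of whole L2 larvae was sequenced in 9 libraries, 3 per genotype. Groups were read from the sample titles, and nothing in the labels says that libraries of a genotype came from separate cultures, so p-values deposited by the authors reflect only how these libraries vary. Per the labels' protocols, Trizol and a spin column with DNase treatment gave the RNA, and the Nugen Ovation RNA-Seq V2 kit the libraries. The authors computed FPKM with TopHat2 and Cuffdiff on ce10, per the submitters' processing notes; their versions, annotation and strand setting were not given in the sources used here. The deposited files have 1 FPKM per genotype with 2 bounds, per the file headers, and a p-value and q-value for the mutant against wild type. In the deposited test table FPKM is 1.04-fold that of the table of all genotypes, from which the levels here come.

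Genes passed where the deposited q was 0.05 or lower and 1 group or both reached an FPKM of 1. Intervals were compared for overlap, and differences were set against the root of the summed squared interval widths to either side, each averaged over both sides. Log2 differences used a pseudocount of 1, which understates changes of low genes. Python 3.11.15, pandas 2.3.3 and numpy 2.4.6 were used. Of 47 listed genes, 6 were matched through RefSeq symbols (WBcel235) and the others by the file's symbols; lengths and neighbours came from Ensembl release 115. The named genes were all subunits of prefoldin and CCT, hsf-1, called members of the other lists or else their most abundant ones, and the 5 nearest in pattern. Beyond this rule, tbb-2, uri-1 and the neighbours of pfd-1, pfd-5 and pfd-6 were chosen after their values were seen. B0035.22 and T06G6.15 were named for their position, without values. The members and lists were chosen with earlier results of these data known. Alternatives were other q and FPKM thresholds, a fold threshold, other pseudocounts, centring and scaling, the levels of the test table and leaving out pfd-1. No sequences of the members are shown, as none were used here.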

Additional observations from a re-analysis of the deposited data

How the results depend on the processing

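At a q of at most 0.01, 0 prefoldin genes passed in the authors' deposited Cuffdiff test (2 at an unadjusted p under 0.05), where 1, pfd-6, had passed at 0.05. With the combined reach of the intervals in place of their overlap, 1 gene, pfd-5, differed between transgenic line and mutant, against 0. Both moves follow from the rules: the q of pfd-6, 0.0156, is above 0.01, and the combined reach is smaller than the plain sum of the widths. The other 39 alternatives to counts, medians and orders left them within 1.5 times, or medians within the spread of the members; without pfd-1, an alternative chosen after seeing the data, the median log2 difference of transgenic line minus mutant moved most, from 0.35 to 0.62, and that of transgenic line minus wild type turned from 0.02 to −0.05, and to −0.02 with centring. The 60 alternatives for single subunits moved no log2 difference by more than 0.07 and turned none between mutant and wild type. Leaving out a library was not possible because the authors' values combine the libraries. No paired analysis was possible because the columns carry no replicate number. With intervals reaching 58.1% or more of the value, averaged over both sides, small differences were not detectable.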
